A study of Mus musculus with 4 samples.

Results

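The genes described here are those of the insulin-like growth factor (IGF) binding proteins Igfbp2, Igfbp3, Igfbp4, Igfbp5, Igfbp6 and Igfbp7, the ligands Igf1 and Igf2, and the receptor Igf1r. They are 9 of 31053 genes in the deposited matrices, matched by their symbols, and all 9 were found. They were chosen by a rule that used measured values: Igfbp3 was among the genes most raised in Ccl21a-high medullary thymic epithelial cells (mTECs) after loss of both RANKL and CD40 signals. The values of that contrast are therefore given as a description and support nothing.

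IGF1 and IGF2 are secreted growth factors that act through the receptor tyrosine kinase IGF1R, which feeds the PI3K-AKT and MAPK cascades. Most IGF in tissue fluid is held by the high-affinity binding proteins, which carry the ligands, keep them from the receptor or release them when proteases such as PAPP-A cut the binding protein. IGFBP7 is the odd one of the group, since it binds IGFs only weakly. In the thymus, IGF1 is known to act on both thymocytes and epithelial cells.

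Thymic epithelial cells (TECs), sorted as EpCAM+, CD45- and TER119-, were profiled by droplet single-cell RNA-seq from mice 6 weeks of age on the C57BL/6 background. The 4 libraries were WT-Control (wild-type, control rat IgG), WT-RANKL-Ab (wild-type, anti-RANKL antibody clone OYC1), Cd40-/- Control (germline Cd40-deficient, control IgG) and Cd40-/- RANKL-Ab (Cd40-deficient, anti-RANKL). Antibody or IgG was given once under the skin at 5 mg/kg 2 weeks before collection, so the antibody was systemic, and the Cd40 loss was germline and not limited to TECs. Each library pooled 3 mice. There is thus 1 library per condition, no difference between conditions has a replicate check, and no p-value is given: all intervals are 95% intervals that cover the counting of unique molecular identifiers (UMIs) only.

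After filtering, 10218, 7164, 8591 and 2082 cells were kept in the 4 libraries in the order just given, which is the order of every set of 4 values below, and the median depth of kept cells ranged from 6086 to 7621.5 UMIs. Cd40 itself, the deleted gene, stood at 110 UMIs per 1000000 (CPM), 28.8, 5.75 and 4.75, so the levels follow the genotype labels. The Cd40-/- Control and Cd40-/- RANKL-Ab libraries held 205 cell barcodes in common, 9.85% of the barcodes of the smaller library, whereas the other pairs shared 0.817 to 1.42%. Of those 205 barcodes, 161 fell in the same cell class in both libraries, with a median of 723 UMIs in the control library and 24073 in the antibody library. Among Ccl21a-high cells they were 30 and 29 cells. Without them, Igfbp3 in those cells stayed at 21.8 CPM under control IgG and went from 146 to 143 CPM under the antibody, Igfbp5 went from 791 to 788 and from 485 to 499 CPM, and Igf1 of Cd40-/- RANKL-Ab went from 43.6 to 47.1 CPM.

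Cells were placed in classes by sums of marker UMIs per 10000. Ccl21a-high cells, with at least 30 Ccl21a UMIs per 10000 and no gate met that comes earlier in the sequence (thymocyte, mimetic, cTEC, cycling and progenitor gates), numbered 3601, 3690, 2076 and 764. Ccl21a, the chemokine that draws developing thymocytes into the medulla, is the single marker behind this class, so it is named by that gene, and its Epcam levels of 992, 832, 958 and 794 CPM are those of an epithelial sort. Cells rich in the 7 progenitor markers (Pdpn, Ackr4, Dcn, Serpinf1, Fst, Fmod and Bgn) were called progenitor-like (132, 433, 229 and 180 cells) or, with high Ccl21a, Ccl21a-high progenitor-like (89, 176, 154 and 267 cells). Of the progenitor-like cells, 16.9% had a marker sum within 20% of the gate limit, so their border with other cells is not sharp. Cortical TEC-like (cTEC-like) cells numbered 193, 583, 748 and 376. Aire+ mTEC-like cells numbered 2683, 299, 1843 and 6, so this class cannot be described in Cd40-/- RANKL-Ab.

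The promoters of Igfbp3 and Igfbp5 are shown because, in Ccl21a-high cells of Cd40-/- mice, Igfbp3 was higher and Igfbp5 lower with the antibody, and because RANK and CD40 are both known to signal to NF-kB. The sequences are the 250 bases before the RefSeq transcription start, 5′ to 3′ on the strand of the gene, in build GRCm38.p6. Capitals mark a match to the NF-kB motif, and both genes lie on the minus strand, Igfbp3 with chr11:7213924-7214173 and Igfbp5 with chr1:72874866-72875115.
Igfbp3: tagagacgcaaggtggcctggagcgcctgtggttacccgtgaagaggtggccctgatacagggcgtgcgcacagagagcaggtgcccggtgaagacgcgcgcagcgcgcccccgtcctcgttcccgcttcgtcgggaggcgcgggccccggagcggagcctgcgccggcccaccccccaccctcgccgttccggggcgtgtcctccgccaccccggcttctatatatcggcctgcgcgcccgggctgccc
Igfbp5: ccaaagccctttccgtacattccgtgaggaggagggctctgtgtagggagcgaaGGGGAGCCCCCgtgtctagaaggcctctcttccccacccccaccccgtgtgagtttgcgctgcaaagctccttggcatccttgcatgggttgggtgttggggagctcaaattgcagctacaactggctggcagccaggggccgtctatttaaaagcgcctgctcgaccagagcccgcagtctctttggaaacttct

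The window of each gene also takes in the first 50 bases after the start, which are not printed. GC content of the 300-base window was 71.7% for Igfbp3 and 56.3% for Igfbp5. The Igfbp5 matches to the NF-kB motif overlap each other on both strands, and 8.46% of all 32851 RefSeq windows of this length hold at least 1. The Igfbp3 window held no match to the NF-kB motif or to the AP-1 site TGANTCA (7.81% of all windows). Nor did it hold the letters TATAAA (13.6%) or the GC box GGGCGG (35.7%). Every motif was searched on both strands. Other forms of the TATA box were not searched, and the printed Igfbp3 sequence holds tatatat near its end. The letters of the GC box occur at Igfbp2, Igfbp7, Igf2 and Igf1r, and the AP-1 site at Igfbp2 and Igf1. TATAAA occurs at Igfbp4, 28 to 23 bases before the start. At Igfbp6 it is on the opposite strand, 148 to 143 bases before the start. A match describes letters and shows no binding.

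The 9 genes are all protein-coding, and in GRCm38 they lie on 6 chromosomes. Igfbp2 (chr1:72824503-72852474, plus strand) and Igfbp5 (chr1:72857932-72874884, minus strand) are neighbours, with 5457 bases between their ends. Igfbp3 (chr11:7206086-7213923, minus strand) lies 3539 bases from Igfbp1, which stood at 0.337, 0.208, 2.10 and 0 CPM in Ccl21a-high cells from at most 27 UMIs. Igfbp4 is also on chromosome 11 (chr11:99041244-99054392), Igfbp6 on 15 (chr15:102144362-102149511), Igfbp7 on 5 (chr5:77349240-77408041) and Igf1 on 10 (chr10:87858265-87937042). Igf2 (chr7:142650766-142666816) and Igf1r (chr7:67952827-68233668) share chromosome 7 but lie far apart.

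Igf1 was high in Aire+ mTEC-like cells and in some of the mimetic classes, mTECs that take on programmes of peripheral cell types. In Aire+ mTEC-like cells it stood at 267, 602 and 321 CPM in the first 3 libraries, so the antibody library was the highest, with a log2 ratio of 1.17 (interval 1.08 to 1.26) over WT-Control. Enterohepatic-like cells had 519, 308 and 458 CPM and microfold-like cells 451, 412 and 505 CPM in the same 3 libraries. Aire+ mTEC-like cells gave 48.5% of all Igf1 UMIs in WT-Control and 51.7% in Cd40-/- Control. With that class down to 6 cells, 47.2% of the 572 Igf1 UMIs of Cd40-/- RANKL-Ab came from Ccl21a-high cells.

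Igf1 in Ccl21a-high cells was 57.7, 22.9, 39.8 and 43.6 CPM. Thymocyte-like cells serve here as a rough measure of free RNA and had 84.7, 0.966, 32.7 and 4.33 CPM. The WT-Control level of Ccl21a-high cells thus lay below theirs. It is no floor for the whole library, since cells with both thymocyte and cTEC markers (nurse cTEC-like) had 4.74 CPM in WT-Control. How much of the WT-Control level in Ccl21a-high cells is free RNA was not tested. The ordering of the conditions in Ccl21a-high cells depended on how the cells were split. Cells with at least 20 UMIs per 10000 of Mgp and Gpx3 together (Mgp/Gpx3-high cells) had 20.8 CPM of Igf1 in WT-Control and 57.0 in Cd40-/- RANKL-Ab, whereas the other Ccl21a-high cells (Mgp/Gpx3-low) had 80.7 and 27.7 CPM. Igf2, which is strongly expressed in the embryo and imprinted, was near absent: 27, 2, 41 and 0 UMIs in the kept cells of the libraries, and a count of 0 has a floor of 3 counts here, which is a limit on 1 side and not the upper end of the intervals on 2 sides. Its single UMI in Ccl21a-high cells was in WT-Control.

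Igf1r, the receptor, was found in every large class. In Ccl21a-high cells it stood at 52.2, 92.6, 79.3 and 113 CPM, so the 3 libraries lacking a signal were each above WT-Control and Cd40-/- RANKL-Ab was the highest. The log2 ratio of Cd40-/- RANKL-Ab over WT-Control was 1.12 (0.99 to 1.25). In cTEC-like cells WT-Control was again the lowest, with 88.6, 147, 168 and 178 CPM and a ratio of 1.00 (0.76 to 1.25). Thymocyte-like cells had 26.9, 24.2, 37.4 and 32.5 CPM. Progenitor-like cells (29.0, 42.2, 59.7 and 55.3 CPM) and Aire+ mTEC-like cells (25.6, 35.4 and 33.8 CPM, without Cd40-/- RANKL-Ab) lay nearer to those levels.

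**Figure D1:**
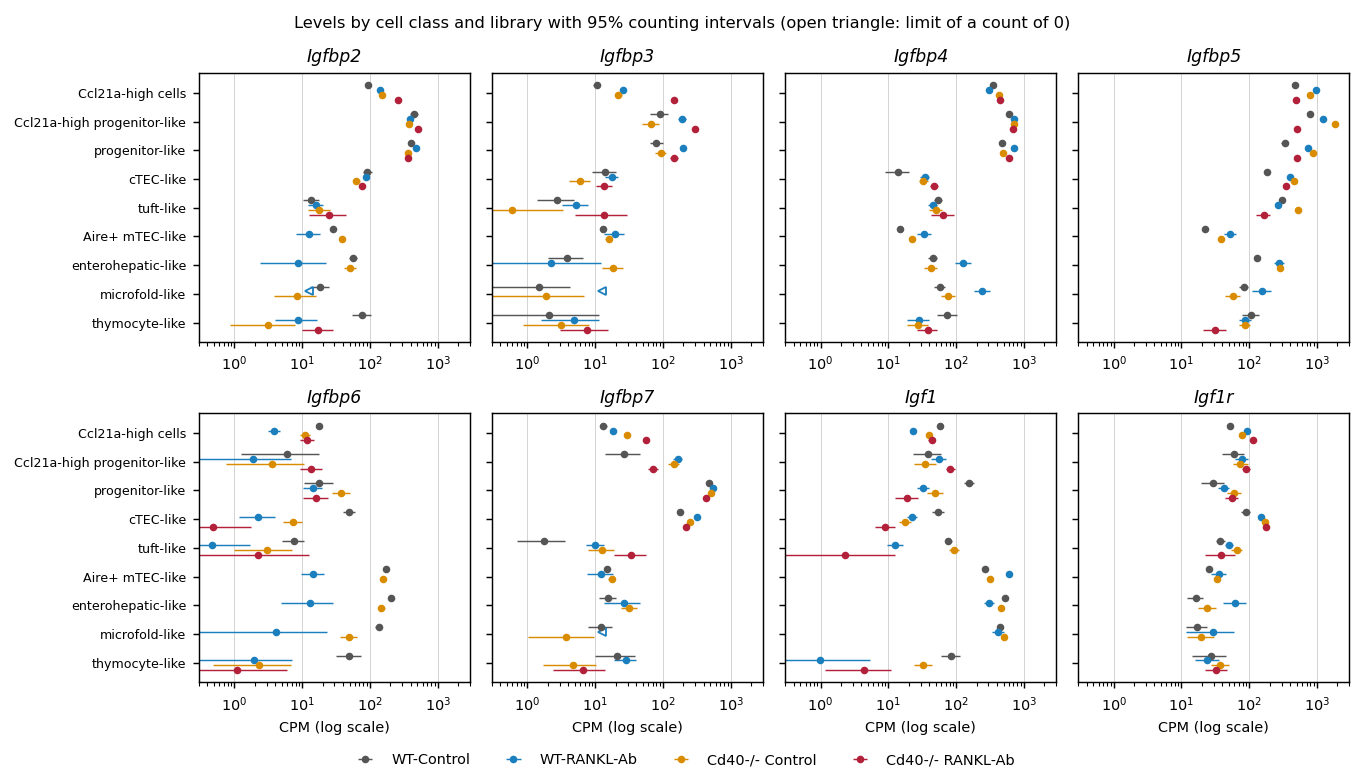
CPM on a log axis of each gene in each cell class, with 1 point per library and 95% counting intervals, and an open triangle where a class had no UMI. Igfbp2, Igfbp3 and Igfbp4 are high in the 2 progenitor-like classes, Igf1 in Aire+ mTEC-like, enterohepatic-like and microfold-like cells, and Igfbp7 in progenitor-like and cTEC-like cells.

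Igfbp3 encodes the main IGF carrier of the blood and, in tissues, a secreted protein that also binds matrix. In Ccl21a-high cells it stood at 10.6 CPM (9.43 to 11.9), 25.8 (23.8 to 27.9), 21.8 (19.3 to 24.5) and 146 (137 to 156), from 284, 620, 280 and 904 UMIs. The library without either signal was far above the other 3, whose order was WT-Control, Cd40-/- Control and WT-RANKL-Ab, the last pair with intervals that overlap. The difference behind the choice of the genes was 13.7-fold, a log2 ratio of 3.78 (3.59 to 3.98), and it ranked 2nd of 14783 genes when 10 CPM were added to both levels. Antibody over control was 1.28 (1.07 to 1.49) in wild-type mice and 2.74 (2.55 to 2.94) in Cd40-/- mice on the log2 scale, and Cd40-/- over wild-type was 1.04 (0.79 to 1.28) under control IgG and 2.50 (2.35 to 2.65) under the antibody. The values of the Cd40-/- RANKL-Ab library enter every one of these except the first antibody ratio and the ratio under control IgG, and those that compare with WT-Control share that library.

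The higher Igfbp3 level of Cd40-/- RANKL-Ab lay in more cells and, before thinning, also in more UMIs per cell with the gene. Thinned to 1000 UMIs per cell, 0.707% of Ccl21a-high cells in WT-Control held an Igfbp3 UMI (exact interval 0.453 to 1.05), against 2.495% (2.003 to 3.07), 2.07% (1.48 to 2.81) and 12.7% (10.4 to 15.3) in the other 3 libraries. Thinning left out 570, 492, 806 and 74 of all kept cells. Without thinning the shares were 5.30, 8.92, 9.15 and 43.1%, at median depths of 6190, 6288, 5594.5 and 7387 UMIs. Thymocyte-like cells, in which the gene should be absent, gave 0, 0, 0 and 0.556% thinned and 1.33, 0.855, 0.789 and 2.49% unthinned, at 2935, 1730.5, 1349 and 1631 UMIs. The thinned zeros came from 65, 192 and 236 cells and allow shares up to 5.52, 1.90 and 1.55% (exact upper limits), so only in WT-Control does the limit exceed the share in Ccl21a-high cells. Cells with any Igfbp3 UMI held 1.49, 1.88, 1.47 and 2.75 of them on average, and cells with 5 or more made up 0.139, 0.596, 0.289 and 6.28% of the Ccl21a-high cells. These values were not thinned, and depth was highest in Cd40-/- RANKL-Ab. A few cells carried much of the signal in WT-Control, where the 1% of cells richest in Igfbp3 held 35.9% of its UMIs, against 7.19% in Cd40-/- RANKL-Ab. Such a share falls as more cells hold a UMI, here 191 of 3601 and 329 of 764 cells. Without the richest 1% of cells the levels were 6.87, 18.6, 17.2 and 136 CPM.

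Igfbp5 encodes a binding protein that attaches to extracellular matrix. In Ccl21a-high cells it stood at 481 CPM (472 to 489), 964 (952 to 977), 791 (776 to 806) and 485 (468 to 503), from 12844, 23169, 10153 and 3000 UMIs. Each single loss was thus above WT-Control, and the library with both losses was level with it, at a log2 ratio of 0.01 (-0.05 to 0.07), or 0.62 within cells without progenitor marker UMIs. Antibody over control was 1.00 (0.97 to 1.04) in wild-type mice and -0.71 (-0.76 to -0.65) in Cd40-/- mice. The thinned share of cells with an Igfbp5 UMI was 30.6, 48.9, 37.1 and 31.3%, the same order as the level. Igfbp5 in thymocyte-like cells was 105, 86.9, 86.5 and 31.4 CPM.

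**Figure D2:**
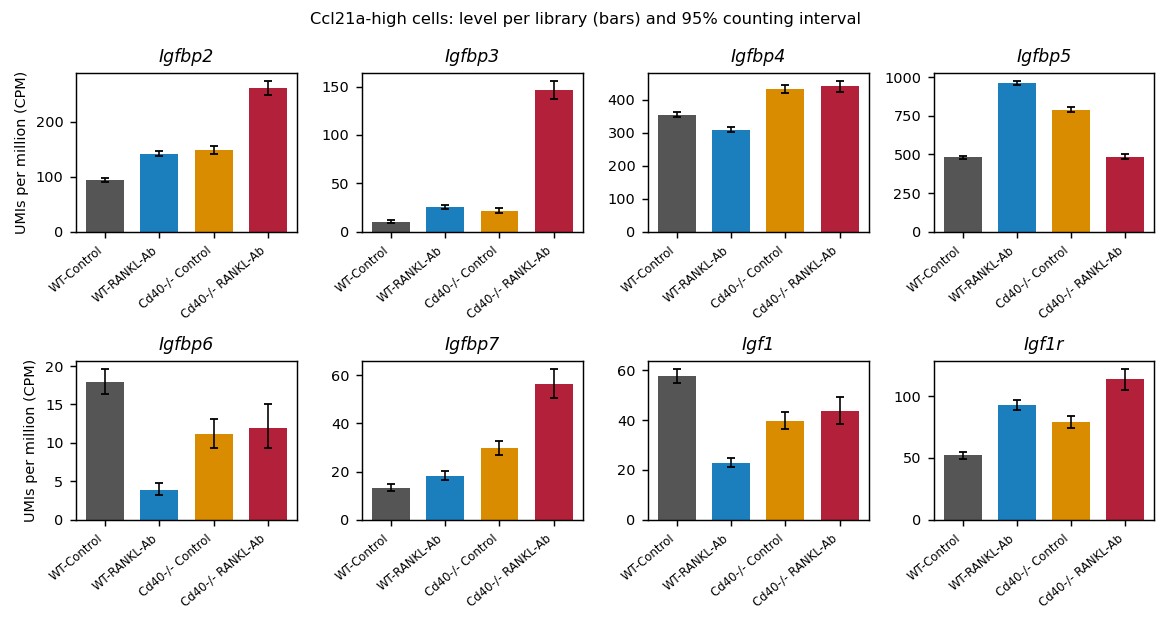
Level of each gene in Ccl21a-high cells in CPM, with 1 bar per library from 0 and the 95% counting interval. Igfbp3 is highest in Cd40-/- RANKL-Ab at 146 CPM, while Igfbp5 peaks at 964 CPM in WT-RANKL-Ab and is 485 CPM in Cd40-/- RANKL-Ab.

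Igfbp2, which like Igfbp5 sits on chromosome 1, stood at 94.0 (90.3 to 97.7), 142 (137 to 147), 149 (142 to 156) and 261 (249 to 274) CPM in Ccl21a-high cells, so it was above WT-Control in all 3 other libraries and highest without both signals. The log2 ratio of Cd40-/- RANKL-Ab over WT-Control was 1.48 (1.38 to 1.57). Thymocyte-like cells had 76.4 CPM of Igfbp2 in WT-Control and 17.3 or lower elsewhere. With that level subtracted the Ccl21a-high cells of WT-Control kept 17.6 CPM and the ratio was 3.80. This ratio may be too large, since tuft-like and nurse cTEC-like cells of WT-Control had 13.5 and 15.4 CPM, below the level subtracted. The same subtraction gave negative WT-Control levels for Igfbp6, Igfbp7 and Igf1. Within Mgp/Gpx3-low cells the ratio was 2.12, and the thinned share of Ccl21a-high cells with a UMI was 6.92, 9.09, 10.8 and 15.9%.

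Igfbp7, the weak IGF binder, stood at 13.2, 18.3, 29.6 and 56.4 CPM, a log2 ratio of 2.09 (1.88 to 2.31) for Cd40-/- RANKL-Ab over WT-Control, which was 1.46 within Mgp/Gpx3-high cells and 4.09 within cells without progenitor marker UMIs. The last ratio rests on 33 UMIs from 67 cells against 36 UMIs. With over 60 Mgp and Gpx3 UMIs per 10000, Cd40-/- RANKL-Ab had 15.1 CPM (8.02 to 25.8) and WT-Control 23.7 (18.8 to 29.5), intervals that overlap. In the bins with fewer, Cd40-/- RANKL-Ab was higher. WT-Control and WT-RANKL-Ab lay under the thymocyte-like levels of 20.7 and 28.0 CPM, while both Cd40-/- libraries lay above theirs, 4.68 and 6.497 CPM. Igfbp4, a binding protein that mostly restrains IGF action, stood at 354, 309, 433 and 440.4 CPM, with log2 ratios from -0.20 (antibody in wild-type mice) to 0.51 (Cd40-/- over wild-type under the antibody). Antibody over control in Cd40-/- mice was 0.03 for Igfbp4, and -0.71 in cells without progenitor marker UMIs. Igfbp6, which prefers IGF2, stood at 18.0, 3.91, 11.1 and 12.0 CPM. Thymocyte-like cells of WT-Control had 49.6 CPM of it and nurse cTEC-like cells 1.19 CPM. Its WT-Control level may thus hold free RNA, in a part that was not tested.

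Counts of genes at least 2-fold apart set these values beside all genes with 20 or more UMIs in the 2 libraries together. For Cd40-/- RANKL-Ab over WT-Control in Ccl21a-high cells, 4 of the 8 genes that met the minimum were higher (Igfbp2, Igfbp3, Igfbp7 and Igf1r) and 0 were lower, where 6.22% of the 14783 genes were higher and 16.2% were lower. Nothing is read from this count because the genes were chosen from the same contrast. Igf2 did not meet the minimum in any of these comparisons. The median log2 ratio of the 8 was 0.716, beside 0.0602 for all genes.

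For the antibody in wild-type mice, Igfbp3 and Igfbp5 were at least 2-fold higher and Igfbp6 and Igf1 at least 2-fold lower, where 2.65% of 15404 genes were higher and 13.2% lower. Igfbp5 was right at the limit, and with edgeR's TMM scaling its log2 ratio was 0.96. With 10 CPM added the log2 ratios of Igfbp3 and Igfbp5 were 0.80 and 0.99, both under 2-fold. The lower Igfbp6 and Igf1 did not hold as calls under every setting: as a mean over cells their log2 ratios were -0.21 and -0.70 in place of -2.20 and -1.34. For the loss of Cd40 under control IgG, Igfbp3 and Igfbp7 were higher and 0 were lower, where 5.46% of 15302 genes were higher and 6.57% lower. Neither call held with TMM scaling, where Igfbp3 went from 11.1 to 20.2 CPM and Igfbp7 from 13.8 to 27.5 CPM. With 10 CPM added their log2 ratios were 0.62 and 0.77. For the antibody in Cd40-/- mice, only Igfbp3 of the 8 was higher and 0 were lower, where 3.81% of 13402 genes were higher and 12% lower. In that comparison Igfbp3, with 10 CPM added, ranked 1st of all genes, while under the antibody in wild-type mice it ranked 62nd and under Cd40 loss 587th. The Cd40-/- RANKL-Ab library was used to choose the genes, so nothing is read from the first of these ranks or its distance from the others. Medians of the 8 were 0.534, 0.632 and 0.325, beside 0.0913, 0.112 and -0.0623 for all genes. Of these comparisons only the antibody in wild-type mice uses no library of Cd40-/- mice, and it shares no library with the antibody in Cd40-/- mice.

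**Figure D3:**
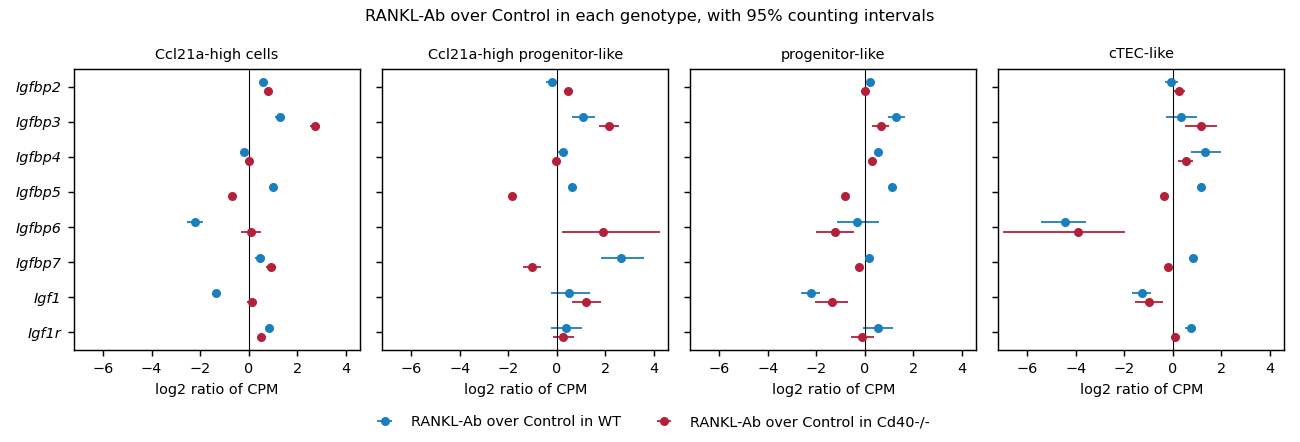
Log2 ratio of RANKL-Ab over control IgG in wild-type and in Cd40-/- mice for each gene and class, with 95% counting intervals. In Ccl21a-high cells Igfbp3 is above 0 in both genotypes (1.28 and 2.74), whereas Igfbp5 is at 1.00 in wild-type and -0.71 in Cd40-/- mice.

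Ccl21a-high cells of Cd40-/- RANKL-Ab were also richer in other transcripts. The summed 7 progenitor markers stood at 324, 321, 517 and 891 CPM in the 4 libraries, and the 8 cTEC markers at 2861, 3846, 3658 and 4564 CPM. The fibroblast list (8 genes) summed to 17.6, 27.3, 37.9 and 45.4 CPM with Twist2 at 0 in Cd40-/- RANKL-Ab and Col6a3 at 0 in WT-RANKL-Ab, and the endothelial list (7 genes) summed to 5.84, 3.33, 3.04 and 18.8 CPM. The mural list (7 genes) reached 1723, 2205, 1926 and 2763 CPM, nearly all of it Acta2 and Rgs5. Pdgfrb, also on that list, was 1.24, 0.749, 1.48 and 0.162 CPM. The haematopoietic list (7 genes) summed to 14674, 14262, 12510 and 10844 CPM, nearly all Cd74, with Ptprc between 0.375 and 1.32 CPM. Their part in the Igfbp levels was not tested, except that the progenitor markers allow the cells to be split.

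Split by their progenitor marker sum, Ccl21a-high cells with the highest sums had the highest Igfbp3 in every library, and within each bin Igfbp3 was highest in Cd40-/- RANKL-Ab. Among cells with no progenitor marker UMI, Igfbp3 was 9.67 CPM (7.43 to 12.4), 8.92 (6.93 to 11.3), 9.60 (5.86 to 14.8) and 39.8 (21.8 to 66.9). The intervals of the first 3 libraries overlap there, the last rested on 67 cells, and its log2 ratio over WT-Control was 2.04 in place of 3.78. Among cells with 10 to 20 progenitor marker UMIs per 10000, just below the limit of the progenitor gate, Igfbp3 was 21.6, 95.5, 39.4 and 199 CPM. Such cells were 8.30, 8.02, 16.2 and 40.6% of the class, while cells with none were 33.3, 40.7, 27 and 8.77%. Since Fmod and the other markers were used to make the bins and the gates, the pattern is a description.

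Igfbp5 followed a different course. In cells with no progenitor marker UMI it was 446, 847, 626 (593 to 661) and 683 (599 to 775) CPM, so that the intervals of the Cd40-/- libraries overlap, with a log2 ratio of antibody over control of 0.13. In cells with 10 to 20 it was 707, 1148, 1075 and 408 CPM. In the bins above 0 to 5 and 5 to 10, Cd40-/- RANKL-Ab had 581 and 478 CPM against 698 and 868 CPM in Cd40-/- Control. Igfbp5 was thus lower with the antibody in Cd40-/- mice in each of the 3 bins with progenitor marker UMIs.

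**Figure D4:**
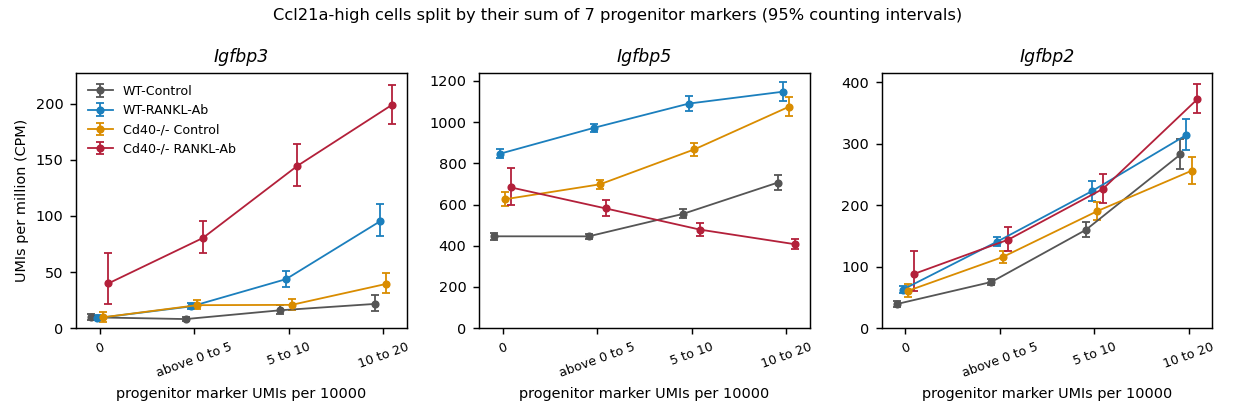
CPM of Igfbp2, Igfbp3 and Igfbp5 in Ccl21a-high cells split by UMIs of 7 progenitor markers per 10000, with 1 line per library and 95% counting intervals. Igfbp3 climbs to 199 CPM in Cd40-/- RANKL-Ab, and Igfbp5 of that library is highest (683 CPM) in cells with no progenitor marker UMI and lowest (408 CPM) in the bin of 10 to 20.

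The Mgp and Gpx3 split gave a like picture. Mgp/Gpx3-high cells had 15.99, 57.0, 26.5 and 184 CPM of Igfbp3 and Mgp/Gpx3-low cells had 7.29, 10.6, 18.7 and 101 CPM, so Cd40-/- RANKL-Ab was highest in each. Igfbp5 was 583, 1254, 1088 and 514 CPM in the high cells and 417, 823, 591 and 451 CPM in the low cells. The antibody ratio of Igfbp5 in Cd40-/- mice was below 0 in both, at -1.08 (-1.16 to -1.004) and -0.39 (-0.48 to -0.30). Within the low cells, those with no Mgp or Gpx3 UMI went the other way, with 548 CPM (512 to 587) in Cd40-/- Control and 644 (562 to 734) in Cd40-/- RANKL-Ab from 332 and 56 cells, intervals that overlap. Split by Ccl21a in place of Mgp and Gpx3, Igfbp5 of these libraries had overlapping intervals at 30 to 100 Ccl21a UMIs per 10000 (546 and 508 CPM) and at 100 to 200 (724 and 687 CPM), and was lower with the antibody at 200 to 400 (948 and 436 CPM) and over 400 (1341 and 487 CPM).

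The progenitor-like classes carried more of Igfbp2 and Igfbp3 than Ccl21a-high cells did. The exception was Igfbp3 in Cd40-/- RANKL-Ab, where progenitor-like cells (145 CPM) were level with Ccl21a-high cells (146 CPM). Igfbp2 was 411, 483, 364 and 368 CPM in progenitor-like and 447, 386, 376 and 519.9 CPM in Ccl21a-high progenitor-like cells. In progenitor-like cells Igfbp3 was 80.1, 198, 92.1 and 145 CPM, and for Cd40-/- RANKL-Ab over WT-Control the log2 ratio was 0.86 (0.48 to 1.25). In Ccl21a-high progenitor-like cells it was 89.0, 190, 65.7 and 292 CPM, with a ratio of 1.71 (1.27 to 2.19), and without the shared barcodes the last level was 302 CPM. Thus in both classes the antibody libraries were above their controls in each genotype. Igfbp5 was 332, 729, 884 and 509 CPM in progenitor-like and 775, 1210, 1827 and 508 CPM in Ccl21a-high progenitor-like cells, again higher with either loss alone. Igfbp7 was 482, 538, 513 and 430 CPM in progenitor-like cells. Of the 8 genes that met the minimum in progenitor-like cells, 0 were higher and 1 (Igf1, at 154 against 18.9 CPM) lower, where 6.69% of 9267 genes were higher and 5.83% lower.

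In cTEC-like cells Igfbp7 was 178, 317, 248 and 218 CPM. Igfbp5 was 181, 404, 455 and 349 CPM and Igfbp4 was 13.8, 34.6, 32.7 and 47.2 CPM. Thymocyte-like cells had 74.4, 28.0, 27.3 and 37.9 CPM of Igfbp4, so the cTEC-like level of WT-Control, the reference of its ratio, lay below theirs. Igfbp3 was 13.8, 17.4, 6.03 and 13.4 CPM, with a log2 ratio of Cd40-/- RANKL-Ab over WT-Control of -0.03 (-0.72 to 0.69), and without the shared barcodes the last value was 10.8 CPM. Of the 8 genes, Igfbp4 and Igf1r were at least 2-fold higher in Cd40-/- RANKL-Ab than in WT-Control and Igfbp6 and Igf1 lower, where 8.21% of 11135 genes were higher and 8.67% lower. Igf1 stood at 54.5 against 9.04 CPM (11.2 without the shared barcodes) and Igfbp6 at 48.9 against 0.489 CPM, and in WT-Control both lay below their thymocyte-like levels of 84.7 and 49.6 CPM.

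In the control IgG libraries the 3 highest Igfbp6 levels were those of neuroendocrine-like, enterohepatic-like and Aire+ mTEC-like cells, while tuft-like cells (7.51 CPM in WT-Control and 2.997 in Cd40-/- Control) and keratinocyte-like cells (17.5 and 14.0 CPM) were low. Igf1 was high in keratinocyte-like cells (255 and 692 CPM), so not all classes rich in Igf1 were rich in Igfbp6. In Aire+ mTEC-like cells Igfbp6 stood at 176, 14.6 and 158 CPM in the first 3 libraries. The antibody library was the low one, with a log2 ratio of -3.59 (-4.18 to -3.05), opposite in direction to Igf1 in the same cells. Enterohepatic-like cells had 206, 13.2 and 146 CPM, and neuroendocrine-like cells had 763, 0 and 315 CPM from 60, 36 and 56 cells, where the count of 0 has the same floor of 3 counts. Over all kept cells Igfbp6 UMIs numbered 8047, 223, 3816 and 143.

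Among 55 further genes of the IGF axis (receptors, proteases, adaptors and related proteins), 53 are in the matrices (the other two, Ccn1 and Ccn2, are newer names of Cyr61 and Ctgf) and 46 met the minimum in Ccl21a-high cells. For Cd40-/- RANKL-Ab over WT-Control, 6 were at least 2-fold higher and 11 at least 2-fold lower, beside the 6.22% and 16.2% of all genes, and their median was 0.217. The 10 largest in size included Cyr61 (201 to 586 CPM) and Ctgf (2.66 to 10.3 CPM), the matrix-associated CCN proteins, on the higher side. On the lower side were Igfals, the acid-labile subunit that holds IGF complexes in the blood (43.2 to 12.6 CPM), and the cell-cycle inhibitor Cdkn1c (50.9 to 6.79 CPM), whose thymocyte-like level in WT-Control was 851 CPM. Nov (1.16 to 0.162 CPM, from 31 UMIs and 1 UMI) and Stc1, which restrains PAPP-A (6.25 to 1.78 CPM), were also lower. Ins2, Mmp7, Grb14 and Insrr had 8.87, 3.14, 1.80 and 1.53 CPM in WT-Control, from 237, 84, 48 and 41 UMIs. All of them had 0 UMIs in Cd40-/- RANKL-Ab, which held 764 cells of the class against 3601, so their ratios are bounds at the floor of 3 counts. Beyond these 10, Stc2, Plau, Irs1 and Ghr were at least 2-fold higher. Timp1, Pappa2 and Pappa, the gene of PAPP-A, were at least 2-fold lower, Pappa and Pappa2 from few UMIs. In progenitor-like cells 29 of the list met the minimum, with 3 higher and 3 lower beside 6.69% and 5.83% of all genes, and in cTEC-like cells 35 did, with 6 higher and 5 lower beside 8.21% and 8.67%.

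Across 50 sums of a class in a library (classes of at least 50 cells), the gene most like each binding protein by Pearson correlation of log2(CPM + 10), among 11790 genes, was Bcam for Igfbp2 (r = 0.93), Arhgef25 for Igfbp3 (0.89), Vwa1 for Igfbp4 (0.90), Asph for Igfbp5 (0.86), Sbp for Igfbp6 (0.93) and Samd5 for Igfbp7 (0.93). For Igfbp3 the next were Ehd2 and Fmod, the latter a marker used in the gates, and for Igfbp7 they were Tgfbr3 and Tgfbr2. Bcl2a1b was most like Igf1 (0.89) and Rhoq most like Igf1r (0.88). Igfbp2 and Igfbp3 correlated at 0.86 and Igf1 with Igfbp6 at 0.59. The sums share libraries, so these are descriptions.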

How the data were processed

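The authors pooled 3 mice per condition, trimmed reads with fastp and counted UMIs with Cell Ranger (version 5.0.1 in the paper and the file headers, 5.1 in the submitters' processing notes) on mm10. The deposited matrices hold raw UMI counts per gene and barcode. Kept cells had at least 200 genes, each found in more than 5 cells, and at most 25% mitochondrial UMIs. The 2 gene IDs named Ccl21a were summed. Cells were gated in sequence on marker UMIs per 10000, with limits set on the sums seen in these cells, nurse and thymocyte gates first. No doublet caller was run. Counts were summed per class and library and given as CPM with exact Poisson intervals, ratios with exact conditional binomial intervals, and shares with Clopper-Pearson intervals after thinning to 1000 UMIs. Cells are not replicates. A gene was counted as higher or lower at 2-fold or more if the 2 libraries summed to at least 20 of its UMIs. The text names all 9 genes, IGF axis genes past 2-fold (at most 10 with values) and the genes most like each of the 9. The members and lists were chosen with earlier results of these data known. Promoters and coordinates come from RefSeq (GRCm38.p6) and GENCODE, and all 9 genes matched. The ratio script recovered known folds on simulated data. Python 3.11.15, scipy 1.17.1, R 4.3.3 and edgeR 4.0.16 (TMM only) were used. Processing alternatives are listed in the closing section.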

Additional observations from a re-analysis of the deposited data

Results flagged for a closer look

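The antibody was associated with opposite differences in the 2 genotypes for Igfbp5, Igfbp7 and Igf1r. In the classes given below, the 2 counting intervals lay on different sides of 0. Only Ccl21a-high, Ccl21a-high progenitor-like, progenitor-like, cTEC-like and tuft-like cells were searched for this. In thymocyte-like cells, outside the search, Igfbp2 was 76.4, 8.69, 3.12 and 17.3 CPM from 37, 9, 4 and 16 UMIs. It was thus lower with the antibody in wild-type and higher in Cd40-/- mice. These differences between genotypes were not tested, since each condition is 1 library. Igfbp5 had log2 ratios of RANKL-Ab over control IgG of 1.004 in wild-type and -0.7055 in Cd40-/- mice in Ccl21a-high cells, 0.6425 and -1.848 in Ccl21a-high progenitor-like cells, 1.132 and -0.7981 in progenitor-like cells, and 1.159 and -0.3806 in cTEC-like cells. For Igfbp7 they were 2.642 and -1.022 in Ccl21a-high progenitor-like cells, 0.1586 and -0.2544 in progenitor-like cells, and 0.8362 and -0.1858 in cTEC-like cells. Igf1r had 0.4124 and -0.7767 in tuft-like cells, where Cd40-/- RANKL-Ab held 63 cells. Without the shared barcodes, cTEC-like levels in Cd40-/- Control and Cd40-/- RANKL-Ab were 457 and 395 CPM for Igfbp5, in place of 455 and 349. For Igfbp7 the levels were 247 and 196 CPM, in place of 248 and 218. Of the barcodes, 205 were held by both Cd40-/- libraries.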

How the results depend on the processing

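Leaving out a replicate was not possible, since each condition is 1 library. No paired analysis was possible because each condition has 1 library and no replicate numbers. The alternatives changed the mitochondrial limit, the depth of cells, the gates, the scaling and the added constant, and those named here as added (only cells without progenitor marker UMIs, without the 1% of cells with the highest Igfbp3, without the 5% of cells with the most UMIs, thymocyte-like level subtracted, without shared barcodes) were chosen after seeing the data. Over these, 345 log2 ratios stayed within the counting interval, 179 moved and 19 changed sign. For Igfbp3 in Ccl21a-high cells, Cd40-/- RANKL-Ab over WT-Control was 3.583 with gate limits halved, 2.92 with 10 CPM added, 3.521 within Mgp/Gpx3-high cells, 4.312 without the 1% of cells, 2.043 without progenitor marker UMIs, 4.016 after subtraction and 2.744 against Cd40-/- Control. For Igfbp5, antibody over control in wild-type mice was 1.074 with gates halved, 0.9571 by highest marker sum, 0.9157 as a mean over cells, 0.9621 with TMM, 1.106 in Mgp/Gpx3-high cells, 0.9392 without the 5% of cells, 0.9249 without progenitor marker UMIs and 1.225 after subtraction. In Cd40-/- mice it was -0.8023 with gates doubled, -0.4376 with gates halved, -0.7879 by highest marker sum, -0.5265 as a mean over cells, -0.5749 with TMM, -1.082 and -0.3899 in Mgp/Gpx3-high and Mgp/Gpx3-low cells, -0.635 after subtraction and, with the sign changed, 0.1254 without progenitor marker UMIs. With gates halved, 1 gene (Igfbp6) was 2-fold lower in Cd40-/- RANKL-Ab than in WT-Control. Sign changes for the antibody in wild-type mice were Igfbp3 -0.1156 (no progenitor marker UMIs), Igfbp4 0.00722 (subtraction) and Igf1 0.3612 (Mgp/Gpx3-high). For Cd40 loss under IgG they were Igfbp3 -0.01047 and Igf1 0.07018 (no progenitor marker UMIs), and Igf1 0.2167 (mean over cells) and 0.286 (Mgp/Gpx3-high). For Cd40-/- RANKL-Ab over WT-Control they were Igfbp4 -0.2138 (no progenitor marker UMIs), Igfbp6 0.06141 (mean over cells), 0.03408 (Mgp/Gpx3-high), 0.01582 (without the 5%) and 0.1029 (against Cd40-/- Control), and Igf1 0.3203 (gates doubled), 0.448 (highest marker sum), 0.4351 (mean over cells), 1.458 (Mgp/Gpx3-high), 0.3231 (without the 5%) and 0.133 (against Cd40-/- Control). With no minimum the share of all genes 2-fold higher was 11.8%, against 6.22%. TMM moved log2 ratios by -0.0423 for the antibody in wild-type mice, -0.173 for Cd40 loss, -0.0428 for both and 0.131 for the antibody in Cd40-/- mice. The subtraction takes the thymocyte-like level as free RNA in Ccl21a-high cells, although some other classes of WT-Control had lower levels. The causes were not tested.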
